A study of Homo sapiens with 6 samples.

Results

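The CDK inhibitors of the CIP/KIP and INK4 families were described in COV434 cells exposed to 4HC. The 7 coding genes were taken by symbol from a table of 16798 genes. They were CDKN1A, CDKN1B and CDKN1C of the CIP/KIP family, and CDKN2A, CDKN2B, CDKN2C and CDKN2D of the INK4 family. Their 29 transcripts were taken by gene number from a table of 79213 transcripts. All 7 genes were listed, and 6 of them passed the filter on low counts.

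COV434 is a human ovarian tumour cell line that the labels call granulosa cells, and 4HC is the active form of cyclophosphamide (CTX), an alkylating drug that damages DNA. Bulk RNA-Seq was done on 3 control samples, labelled wild type, and on 3 samples labelled CTX, which the protocol describes as exposed to 15 µM 4HC for 24 h. Both groups are the same line in the same medium, and the sources used here name no vehicle in the controls. The labels do not say that the samples were separate cultures, so p-values measure only the spread between these samples, which may be technical. The 6 libraries held between 16133786 and 16702316 expected counts. Of 14 granulosa markers 12 were listed, and 7 of these averaged under 0.1 TPM in both groups, among them FOXL2, FSHR and CYP19A1, the defining ones. WT1 was at 133.2 ± 1.72 TPM in control and 106.5 ± 2.93 TPM in 4HC, and was called lower (log2 fold change -0.35, edgeR adjusted p = 8.81e-12). In control HSD17B1 was at 22.5 ± 2.92, AMH at 5.34 ± 1.4 and INHA at 1.18 ± 0.512 TPM (SD, n = 3), and none of them was called. The label granulosa thus rested on few of its markers. The summed list was at 158.9 to 167.0 TPM in control and 132.2 to 138.4 TPM in 4HC, and its part in the results was not tested.

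Cyclin-dependent kinases (CDKs) drive the cell cycle when bound to cyclins, and these inhibitors hold them back. INK4 proteins bind CDK4 and CDK6 alone and block the binding of D cyclins. CIP/KIP proteins bind whole cyclin-CDK complexes and inhibit those of CDK2 in particular. CDKN1A, which encodes p21, is a classical gene induced after DNA damage. CDKN2A is unusual in that it encodes a pair of unrelated proteins from separate promoters, p16INK4a and p14ARF, and p14ARF holds back the ubiquitin ligase MDM2.

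Promoter sequences are shown for CDKN1A, the member with the largest change, for CDKN2A, whose 2 products start from separate promoters, and for CDKN2C, the INK4 member with the largest change. RefSeq promoter windows on GRCh38.p14 were found for 6 of the 7 genes, in 9 entries, and each window ran from 250 bases before the start of transcription to 50 after it. Only the 250 bases before the start are printed, 5′ to 3′ on the strand of the gene. Capitals mark matches on either strand to the TATA box (TATAAA), the GC box bound by SP1 (GGGCGG) and the CCAAT box (CCAAT). They also mark a loose E2F pattern (TTTNNCGC), in which N is any base. The CDKN1A window lies at chr6:36678464-36678713 on the plus strand. The p16INK4a window of CDKN2A lies at chr9:21974858-21975107 and its p14ARF window at chr9:21995325-21995574, both on the minus strand. In GENCODE the CDKN1A transcript NM_000389 starts at 36678658 and the p16INK4a transcript NM_000077 at 21975098. Both starts lie inside the printed windows, so by that annotation part of the printed bases lies past the start. The window printed for CDKN2C lies at chr1:50968456-50968705 on the plus strand, just before the deposited start of the gene. In GENCODE its transcript NM_001262 starts at 50968695, also inside the printed window, so there too the last printed bases lie past the start.
CDKN1A: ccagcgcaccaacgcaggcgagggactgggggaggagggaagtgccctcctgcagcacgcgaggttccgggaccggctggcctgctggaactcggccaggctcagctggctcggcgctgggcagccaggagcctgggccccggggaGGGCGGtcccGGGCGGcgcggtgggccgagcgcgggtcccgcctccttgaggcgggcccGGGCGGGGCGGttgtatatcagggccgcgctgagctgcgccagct
CDKN2A, p16INK4a start: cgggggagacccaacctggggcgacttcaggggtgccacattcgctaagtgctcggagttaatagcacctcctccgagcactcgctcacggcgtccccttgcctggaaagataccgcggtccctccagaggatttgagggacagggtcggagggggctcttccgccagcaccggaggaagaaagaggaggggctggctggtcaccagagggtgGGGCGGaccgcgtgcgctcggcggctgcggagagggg
CDKN2A, p14ARF start: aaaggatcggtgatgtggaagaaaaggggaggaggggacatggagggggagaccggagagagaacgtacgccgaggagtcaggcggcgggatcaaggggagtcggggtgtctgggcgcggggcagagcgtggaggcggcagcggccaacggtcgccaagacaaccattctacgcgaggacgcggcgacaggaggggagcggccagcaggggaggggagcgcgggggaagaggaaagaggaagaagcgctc
CDKN2C: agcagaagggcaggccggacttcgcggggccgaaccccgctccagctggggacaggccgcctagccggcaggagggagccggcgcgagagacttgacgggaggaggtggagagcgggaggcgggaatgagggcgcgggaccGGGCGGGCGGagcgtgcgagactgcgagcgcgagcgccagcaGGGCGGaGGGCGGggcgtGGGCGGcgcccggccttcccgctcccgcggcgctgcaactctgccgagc

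In the CDKN1A window 4 positions matched the GC box, and GC content over the printed bases was 76.4%. The CDKN2C window chosen for printing held 6 such positions, of which 1 lay past the start and is not printed, with a GC content of 77.2%. The windows at its other starts held 0 and 1 such positions, at a GC content of 45.6% and 48.8%. The p16INK4a window held 2, 1 of them past the start, and the p14ARF window held 0, both at a GC content of 66.8%. Over all 35116 promoter windows of the same length, 45.0% held a GC box, and the median GC content before the start was 58.0%. No window of the inhibitors matched TATAAA, which 11.5% of all windows held. A single member window, that of CDKN2D, matched the loose E2F pattern, with the letters TTTCACGC, and 6.89% of all windows matched it. CCAAT stood in the windows of CDKN1B, CDKN2D and 1 of the 3 starts of CDKN2C, against 34.6% of all windows. These matches are letters in a window and no binding was measured.

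The transcripts of p16INK4a and p14ARF share exons, so a read that lies wholly in the shared exons cannot be assigned to either product by its letters.

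CDKN1A was strongly upregulated in 4HC-treated cells, while the other members moved little. Of the 6 members tested, 3 were upregulated (CDKN1A, CDKN2C and CDKN2A), 1 was downregulated (CDKN1B) and 2 did not pass the test (CDKN2B and CDKN2D). Calls were made at an adjusted p under 0.05 by the quasi-likelihood test of edgeR, with Benjamini-Hochberg adjustment over 12368 genes. Among all of these genes 36.4% were called, 19.2% as higher and 17.1% as lower, so calls as such were common. CPM values did not overlap between the groups for 4 members, against 45.3% of all tested genes. A fold change of at least 2 with an unadjusted p under 0.05 was met by CDKN1A alone, and by 1.15% of all tested genes, or 1.02% in the upward direction. The median log2 fold change was 0.05 over the 6 members and 0.00 over all tested genes.

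**Figure D1:**
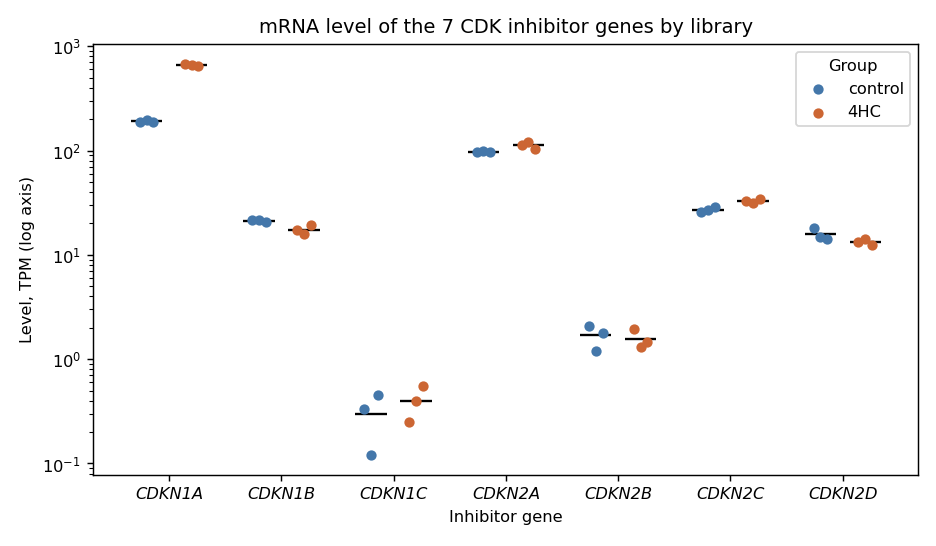
Levels of the 7 inhibitor genes in TPM on a log axis, with 1 point per library, control on the left and 4HC on the right of each gene, and the bar at the group mean. CDKN1A lies between 187.9 and 197.3 TPM in control and between 647.4 and 682.3 TPM in 4HC, while CDKN1C stays at or under 0.55 TPM in all 6 libraries.

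CDKN1A (NCBI Gene 1026, chr6:36676460-36687339, plus strand in GENCODE) encodes p21, which inhibits CDK2 complexes and binds PCNA. Its normalised expression was 220.3, 233.0 and 220.6 CPM in the control samples and 799.7, 786.0 and 764.0 CPM in the 4HC samples. Every 4HC sample was above every control sample, and the spread within either group was small beside the gap. The mean rose from 224.6 ± 7.25 to 783.2 ± 18 CPM (SD, n = 3). The log2 fold change was 1.80 (SE 0.033, edgeR adjusted p = 2.56e-42), a fold change of 3.49. CDKN1A had the smallest p of all 12368 tested genes and ranked 21 from the top by log2 fold change. Total RNA of a culture was measured, so a change in the share of cells that express the gene and a change per cell cannot be told apart.

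CDKN1B (NCBI Gene 1027, chr12:12715058-12722371, plus strand) encodes p27, an inhibitor of CDK2 complexes that accumulates in resting cells. It was at 29.4, 29.5 and 27.9 CPM in control and at 23.5, 21.5 and 26.4 CPM in 4HC. The groups did not overlap, and it was the one member lower in 4HC past the threshold. Expression was downregulated, from 28.9 ± 0.905 to 23.8 ± 2.44 CPM (SD, n = 3), with a log2 fold change of -0.28 (SE 0.067, edgeR adjusted p = 7.73e-04). The 2 expressed CIP/KIP genes thus changed in opposite directions.

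CDKN1C (NCBI Gene 1028, chr11:2883213-2885773, minus strand) encodes p57, an imprinted inhibitor of CDK2 complexes. It was close to the detection limit, with 5, 2 and 7 counts in the control samples and 4, 6 and 9 counts in the 4HC samples. The ranges overlapped and the gene did not pass the filter on low counts, so no difference was detectable at this depth.

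CDKN2A (NCBI Gene 1029, chr9:21967753-21995301, minus strand) encodes p16INK4a and p14ARF. It was at 47.9, 50.3 and 48.0 CPM in control and at 56.2, 60.4 and 51.7 CPM in 4HC. The groups did not overlap, though the lowest 4HC sample lay close to the highest control sample. The mean was upregulated from 48.7 ± 1.4 to 56.1 ± 4.36 CPM (SD, n = 3), with a log2 fold change of 0.20 (SE 0.054, edgeR adjusted p = 0.00204). This call rested on 4HC replicate 2, the highest sample. Without it the log2 fold change was 0.15 (edgeR adjusted p = 0.0571).

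CDKN2B (NCBI Gene 1030, chr9:22002903-22009363, minus strand) encodes p15, an INK4 inhibitor known as a target of TGF-beta signalling, and lies beside CDKN2A. It was at 4.81, 2.77 and 4.10 CPM in control and at 4.47, 3.02 and 3.37 CPM in 4HC. The ranges overlapped widely. The log2 fold change was -0.10, with a 95% interval from -0.46 to 0.25 (edgeR adjusted p = 0.688), so changes in either direction within that interval were not resolved. CDKN2B overlaps the antisense gene CDKN2B-AS1, and the strand setting of the counting was not given in the sources used here, so reads of the 2 genes may not be told apart.

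CDKN2C (NCBI Gene 1031, chr1:50960745-50974633, plus strand) encodes p18, an INK4 inhibitor. It was at 24.7, 25.8 and 26.6 CPM in control and at 32.8, 33.4 and 34.4 CPM in 4HC. The groups were well apart, and the estimated increase was the largest within the INK4 family. The mean was upregulated from 25.7 ± 0.949 to 33.5 ± 0.819 CPM (SD, n = 3), with a log2 fold change of 0.38 (SE 0.061, edgeR adjusted p = 1.19e-06). This is a fold change of 1.3, under the threshold of 2 that the methods of the study state for DEGs.

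CDKN2D (NCBI Gene 1032, chr19:10566462-10569059, minus strand) encodes p19, the remaining INK4 inhibitor. It was at 11.0, 9.05 and 8.51 CPM in control and at 8.33, 8.70 and 7.53 CPM in 4HC. One 4HC sample lay above the lowest control sample, so the ranges overlapped. The log2 fold change was -0.22, with a 95% interval from -0.43 to 0.00 (edgeR adjusted p = 0.13).

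**Figure D2:**
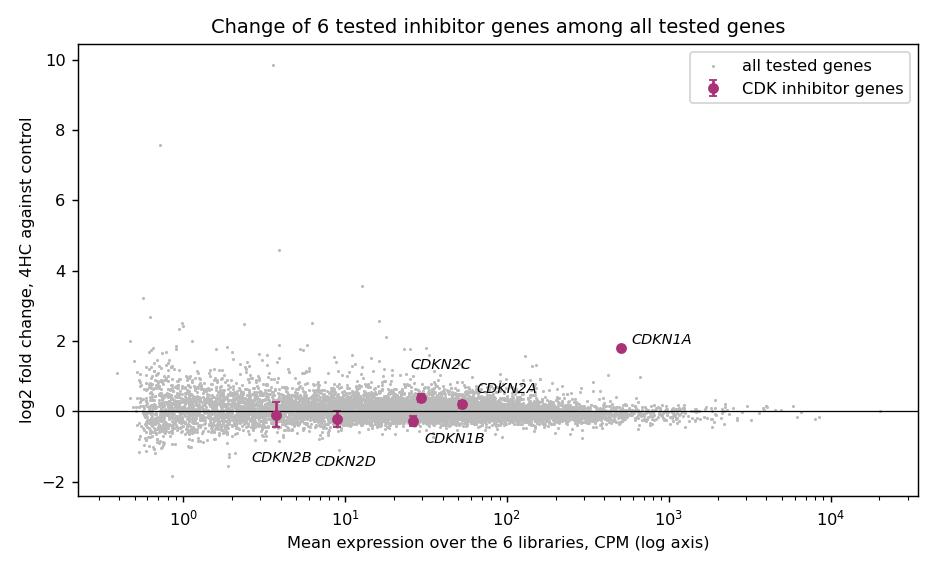
The log2 fold change of 4HC against control on the vertical axis against mean expression in CPM on a log axis, with all 12368 tested genes in grey and the 6 tested inhibitor genes in colour with 95% intervals. CDKN1A stands at 1.80, far from the other members, which lie between -0.28 and 0.38.

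Levels of different genes were compared in TPM, which is scaled to transcript length. CDKN2A was taken as a whole gene, with its p14ARF transcript included. The order was the same in both groups, from CDKN1A through CDKN2A, CDKN2C, CDKN1B, CDKN2D and CDKN2B to CDKN1C. No neighbouring pair in this order had overlapping ranges in either group. CDKN1A was already the most abundant inhibitor in control, at 191.5 ± 5.04 TPM, above 94.5% of tested genes. The CDKN2A gene followed at 97.9 ± 1.85 TPM, above 88.5% of them. Most of this was p14ARF, which is not a CDK inhibitor, since NM_058195 was at 69.9 ± 1.58 TPM. The p16INK4a transcript NM_000077 was at 22.7 ± 0.260 TPM in control and 27.7 ± 3.08 TPM in 4HC, with means under those of CDKN2C in both groups. CDKN2C was at 27 ± 1.4, CDKN1B at 21.3 ± 0.555 and CDKN2D at 15.7 ± 2.07 TPM, around the median of 17.3 TPM over tested genes. CDKN2B at 1.69 ± 0.446 TPM and CDKN1C at 0.300 ± 0.167 TPM were low (SD, n = 3). The ratio of CDKN1A to CDKN2A was 1.96 in control and 5.87 in 4HC.

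The summed level of the 7 genes, p14ARF included, was 352.5, 361.9 and 352.1 TPM in control and 861.5, 846.3 and 819.3 TPM in 4HC. CDKN1A made up 53.9% ± 0.607 of this sum in control and 78.8% ± 0.576 in 4HC (SD, n = 3). By the exact permutation test, two-sided, p was 0.1, the smallest that 3 samples against 3 can give. Without CDKN1A the sum was 163.9 ± 1.06 TPM in control and 178.8 ± 6.62 TPM in 4HC. CDKN2A made up 27.5% ± 0.117 of the sum in control and 13.4% ± 0.901 in 4HC, a lower share of a larger total although its own level was higher.

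**Figure D3:**
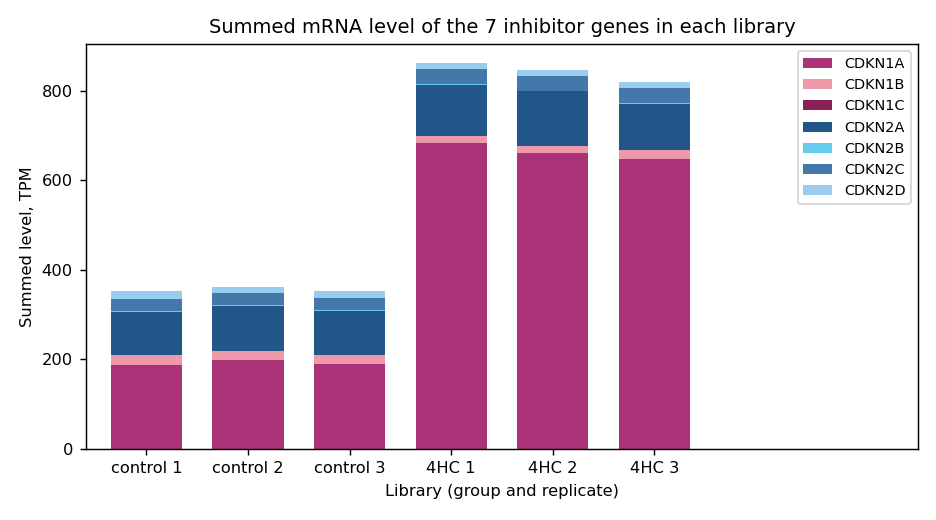
Stacked levels of the 7 inhibitor genes in TPM, with 1 bar for each control and 4HC library and 1 colour for each gene. The bars reach 352.1 to 361.9 TPM in control and 819.3 to 861.5 TPM in 4HC, and CDKN1A makes up most of the gap.

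The CIP/KIP sum can be set beside CDK2, the kinase that this family inhibits in particular. The summed CIP/KIP level was 213.1 ± 5.06 TPM in control and 681.4 ± 16.7 TPM in 4HC, and its ratio to CDK2 went from 2.90 ± 0.113 to 6.90 ± 0.227 (exact permutation p = 0.1, n = 3). This is a ratio of mRNA, and protein was not measured in these files.

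The transcript table showed which forms of each gene carried these values. Of the 29 transcripts, 18 were tested and 4 were upregulated, with 0 downregulated. Among all 42216 tested transcripts 1.29% were called, 0.706% as higher and 0.587% as lower, so transcript calls were rare. Reads shared by transcripts of a gene were divided between them by the counting program, and that uncertainty is not part of the test. A transcript without a call may still have changed.

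All CDKN1A transcripts in GENCODE with a complete coding sequence share the same 492 coding bases and differ in start, length or number of exons. NM_000389 held 3320.2, 3602.9 and 3468.5 counts in control and 12559.7, 12087.2 and 11837.2 counts in 4HC. This form carried nearly all of the gene, 94.3% ± 1.23 of its counts in control and 94.8% ± 0.0227 in 4HC (SD, n = 3), and rose by a log2 fold change of 1.81 (SE 0.036, edgeR adjusted p = 0.000196). NM_001220778 had a mean of 80.9 ± 17.8 counts in control and 301.5 ± 18.6 in 4HC, with a log2 fold change of 1.90 (edgeR adjusted p = 0.0194). NM_001374512 had 29.5 ± 4.83 and 135.5 ± 27.6 counts, with a log2 fold change of 2.19 (edgeR adjusted p = 0.0317). The first of these calls was lost in 6 of 12 alternatives and the second in 8 of 12, in both cases including most or all fits without 1 sample, while the log2 fold changes stayed between 1.73 and 2.00 and between 2.00 and 2.30. NM_001220777, whose start in GENCODE lies upstream of that of NM_000389, had 45.5 ± 12.4 and 97.6 ± 30.5 counts and did not pass the test (log2 fold change 1.09, edgeR adjusted p = 0.31). The other 3 tested forms held few counts, with means up to 68.3 counts in 4HC, and none was called (log2 fold changes of 0.73, 2.68 and 1.69, edgeR adjusted p = 0.986, 0.581 and 0.968). NM_001374510 was estimated at 0 counts in control replicate 3 and at 54.3 to 78.1 counts in the other 5 libraries.

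For CDKN2A the p14ARF transcript was the more abundant in every library. NM_058195, which encodes p14ARF, held 540.6, 571.3 and 561.4 counts in control and 638.9, 714.5 and 604.8 counts in 4HC. NM_000077, which encodes p16INK4a, held 164.6, 162.5 and 164.5 counts in control and 212.7, 216.2 and 174.9 counts in 4HC. For both, every 4HC sample was above every control sample, a pattern seen in either direction in 20.0% of all tested transcripts. Neither passed the test, with log2 fold changes of 0.23 (SE 0.077, edgeR adjusted p = 0.329) and 0.29 (SE 0.134, edgeR adjusted p = 0.543). The ratio of p14ARF to p16INK4a in TPM was 3.07 ± 0.104 in control and 2.94 ± 0.208 in 4HC (exact permutation p = 0.5, n = 3). The ranges of the ratio overlapped between the groups. XM_011517675, a predicted form, took 3.72% ± 0.673 of the counts of the gene in control and 1.86% ± 0.607 in 4HC (exact permutation p = 0.1, n = 3), with 16.8 to 29.7 counts on average. XM_011517676 and NM_001363763 had means under 34 counts and overlapped between groups.

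CDKN2C was counted from 2 transcripts with the same 504 coding bases and different starts. NM_001262, whose promoter is printed above, held 351.9, 365.1 and 379.1 counts in control and 489.4, 509.4 and 508.0 counts in 4HC. It was upregulated with a log2 fold change of 0.46 (SE 0.058, edgeR adjusted p = 0.0314). That call was lost in 8 of 12 alternatives, among them every fit without 1 sample (edgeR adjusted p = 0.11 to 0.144), with the log2 fold change between 0.43 and 0.48. NM_078626 held 49.1, 54.0 and 61.9 counts in control and 53.6, 32.6 and 54.0 counts in 4HC, ranges that overlapped (log2 fold change -0.23, edgeR adjusted p = 0.975). The ratio of the former to the latter in TPM was 2.83, 2.67 and 2.41 in control and 3.62, 6.18 and 3.72 in 4HC. The groups did not overlap, but the mean of 4.51 ± 1.45 in 4HC was pulled up by replicate 2 (exact permutation p = 0.1, n = 3).

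The remaining members gave no transcript call. CDKN1B was counted from NM_004064 alone, with 472.6 ± 9.34 counts in control and 389.9 ± 41.0 in 4HC (SD, n = 3). This is the gene called lower above, and among transcripts its edgeR adjusted p was 0.301 at the same log2 fold change of -0.28. CDKN2B was counted mostly from NM_004936, the full p15 form, with 47.8 ± 11.0 and 57.1 ± 15.9 counts. The log2 fold change of this form was 0.25 (edgeR adjusted p = 0.974), opposite in sign to the -0.10 of the gene, and neither passed the test. The shorter form NM_078487 varied from 0 to 29.5 counts within the control group alone. CDKN2D was divided between NM_079421, with 62.7% ± 1.83 of counts in control and 59.5% ± 5.65 in 4HC, and NM_001800 with the rest, and both overlapped between groups. For CDKN1C all 8 listed transcripts were under the filter.

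Genes that act around the inhibitors were read from 7 lists, beside 19.2% of all tested genes called as higher and 17.1% as lower. The kinases and cyclins that the inhibitors bind were mixed, with 3 of 10 tested genes upregulated, 2 downregulated and a median log2 fold change of 0.02. CDK2, the main kinase inhibited by p21, rose from 91.0 ± 0.907 to 123.5 ± 3.70 CPM (log2 fold change 0.44, edgeR adjusted p = 7.20e-13). CCNE2, a cyclin partner of CDK2, rose by 0.60 on the log2 scale and CCNB1, the mitotic cyclin, fell by 0.57. CDK4 was at 321.9 TPM in control and 311.3 TPM in 4HC and did not pass the test (log2 fold change -0.04, edgeR adjusted p = 0.372). CDK6 was low, at 0.853 ± 0.429 and 0.631 ± 0.153 CPM. This came to 0.117 ± 0.0569 and 0.0867 ± 0.0208 TPM (SD, n = 3), so CDK4 made up nearly all of the mRNA of these 2 kinases.

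Pocket proteins and E2F factors, which link CDK activity to transcription, had 6 of 13 genes upregulated and 3 downregulated. The shares of all tested genes were 19.2% and 17.1%, and the list median was 0.07. E2F7, a repressor among the E2F factors, rose by 1.25 on the log2 scale (edgeR adjusted p = 4.51e-26). RB1, the pocket protein phosphorylated by CDK4, rose from 70.2 ± 1.24 to 85.8 ± 3.93 CPM (log2 fold change 0.29, edgeR adjusted p = 8.71e-07), and RBL1 rose by 0.30. E2F5 fell by 0.40 on the log2 scale.

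Ubiquitin ligase parts that degrade the inhibitors had 3 of 14 genes upregulated and 4 downregulated, beside 19.2% and 17.1% of all tested genes. The list median was 0.02. SKP2, which targets p27, was at 45.5 ± 2.69 and 48.4 ± 3.61 CPM and did not pass the test (log2 fold change 0.09, edgeR adjusted p = 0.23). DTL and PCNA, which act together in the degradation of p21, rose by 0.53 and 1.04 on the log2 scale. CDC20, an activator of the anaphase-promoting complex, fell by 0.66.

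Transcription regulators of the CIP genes had 4 of 19 genes upregulated, 4 downregulated and 11 that did not pass the test. Of all tested genes 19.2% were called as higher and 17.1% as lower, and the list median was 0.01. MDM2, the ligase that p14ARF holds back, rose from 445.7 ± 3.87 to 878.6 ± 5.42 CPM (log2 fold change 0.98, edgeR adjusted p = 6.87e-32). KLF6, an activator of CDKN1A, fell by 0.74. FOXO1 was called at a log2 fold change of 0.54 (edgeR adjusted p = 0.035) from 1.86 ± 0.22 and 2.71 ± 0.377 CPM. That call was lost in 8 of 15 alternatives, among them the fits without 4HC replicate 2, where the log2 fold change was 0.42, without control replicate 2 (0.47) and without control replicate 3 (0.52).

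Regulators of the INK4 genes, mostly Polycomb proteins that keep the CDKN2A and CDKN2B locus silent, had 7 of 19 genes upregulated and 3 downregulated. These counts stand beside 19.2% and 17.1% of all tested genes, and the list median was -0.01. CBX7, a Polycomb reader, rose by 0.59, TBX2, a repressor of p14ARF, by 0.53 and ID1, a repressor of p16INK4a, by 0.41 on the log2 scale.

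A further list held genes that are commonly induced after DNA damage, as CDKN1A is. All 25 genes were upregulated, where 19.2% of all tested genes were called as higher, with a median log2 fold change of 0.78 and a lowest value of 0.35. GDF15, a stress cytokine, had the largest change in the list at 2.12, and PLK3, a stress-responsive kinase, was at 1.51. CDKN1A, at 1.80, lay above 24 of the 25. The list was drawn up with earlier results of these samples known and is not independent evidence of its direction.

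G2/M genes that pocket protein complexes repress, which fall when p21 acts in many settings, were divided. Of 18 genes 9 were downregulated and 5 upregulated, beside 17.1% and 19.2% of all tested genes, with a median of -0.10. PLK1, a mitotic kinase, fell by 0.73, CDC20 by 0.66 and CCNB1 by 0.57 on the log2 scale. The 5 that rose, named after their values were seen, were FOXM1 by 0.37, CDC25C by 0.31, AURKB by 0.26, TOP2A by 0.21 and CCNF by 0.14.

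**Figure D4:**
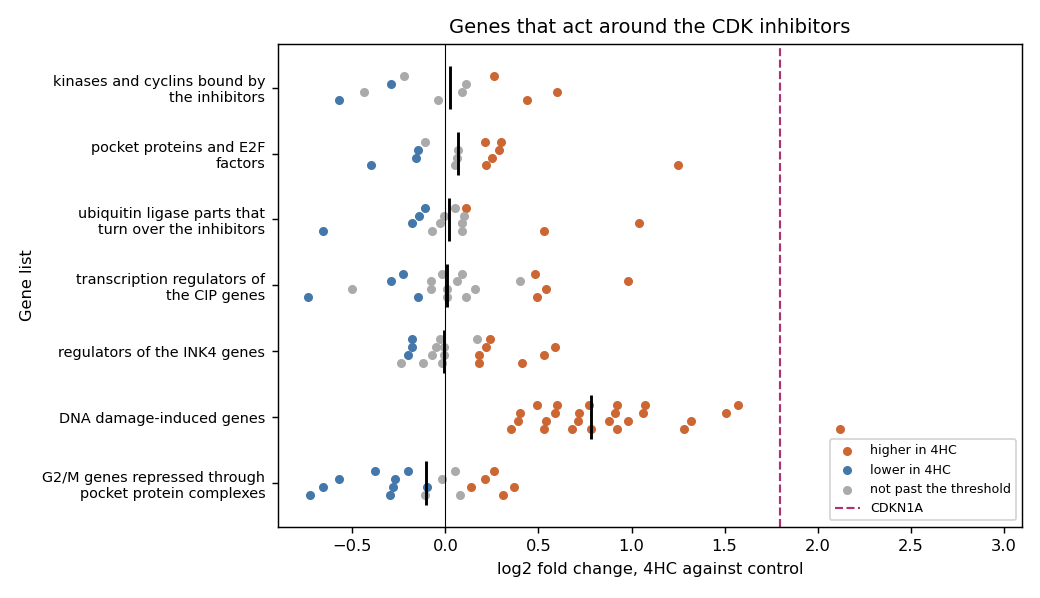
The log2 fold change of 4HC against control of each tested gene in 7 lists, coloured by call, with the list median as a black bar and CDKN1A as a dashed line at 1.80. All 25 DNA damage-induced genes lie to the right of 0, and the medians of the other lists lie between -0.10 and 0.07.

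Genes close to the members on the chromosome did not share the size of the CDKN1A change. Within 250 kb by the deposited coordinates lay 35 coding genes, of which 27 were tested, 7 were upregulated and 4 were downregulated, beside 36.4% called among all tested genes. Around CDKN1A, SRSF3 fell by 0.21 and PPIL1 by 0.19, while STK38 rose by 0.18 on the log2 scale, and the nearest gene, RAB44, was at 0.0402 CPM in control. Around CDKN1B, CREBL2 rose by 0.21 and DDX47 fell by 0.23. GPR19, the nearest to CDKN1B by the deposited coordinates, was at 0.448 CPM in control. FAF1, beside CDKN2C, had a log2 fold change of -0.01 (edgeR adjusted p = 0.925). Around CDKN2D, KEAP1 rose by 0.26, QTRT1 and TYK2 by 0.25 and PDE4A by 0.22, and the call of PDE4A was lost without control replicate 1 (0.16, edgeR adjusted p = 0.0506). SLC44A2, the nearest to CDKN2D by the deposited coordinates, was at 84.4 and 88.4 CPM and did not pass the test. The deposited span of CDKN1C joins an alternate scaffold with positions of the main chromosome, so its neighbours KCNQ1, NAP1L4, which rose by 0.15, and CARS1, which fell by 0.34, are uncertain. The deposited spans of CDKN2A and CDKN2B are on the plus strand and wider than the GENCODE spans on the minus strand, so their neighbours are uncertain too. With GENCODE positions, an alternative added after the data were seen, 29 genes were tested, 8 were upregulated and 4 were downregulated. The nearest gene was then APOLD1 for CDKN1B, at 3.5 kb, and KRI1 for CDKN2D, at 0.4 kb. Neither of them passed the test (log2 fold changes of 0.18 and 0.06, edgeR adjusted p = 0.474 and 0.458).

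The genes whose pattern over the 6 samples was most like that of a member were found by the root mean square difference of log2 CPM centred on the control mean. For CDKN1A these were SULF2 (0.049), PDE4C (0.079), EPHA2 (0.097) and SEMA3G (0.102). SEMA3G held only 7, 8 and 7 counts in control and 27, 33 and 30 counts in 4HC. It passed the filter on low counts through the 4HC samples, and its log2 fold change ranged from 0.36 to 2.09 over alternatives. SULF2, an extracellular sulfatase, rose from 14 ± 0.961 to 48.9 ± 1.3 CPM, and EPHA2, a receptor tyrosine kinase, from 10.5 ± 0.977 to 35.6 ± 1.73 CPM. For CDKN2C they were PCNP (0.016), CPNE7 (0.023), AP3S1 (0.023) and MELK (0.029). PCNP rose from 183.3 ± 5.34 to 237.0 ± 7.35 CPM and MELK, a mitotic kinase, from 83.1 ± 1.70 to 107.6 ± 3.04 CPM (SD, n = 3).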

How the data were processed

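RNA-Seq libraries of 3 control and 3 4HC samples of COV434 cells were grouped by their titles. Reads had been filtered with SOAPnuke and processed on the Dr. Tom system, and the submitters' processing notes name HISAT2, Bowtie2, RSEM 1.3.1, DESeq2 1.4.5 and GRCh38.p13. The authors deposited expected counts per gene and transcript, not normalized. The deposited TPM add up to 1000000 in each library after division by length, and the deposited FPKM are divided by length and by reads. Of the expected counts, 85.5% for genes and 38.9% for transcripts were whole within 0.005. Columns of the authors' own comparison (fold changes and p-values) and a second gene table with the same values were not used.

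After rounding, edgeR 4.0.16 (R 4.3.3) was used on the counts (TMM, filterByExpr, quasi-likelihood test, condition only), with Benjamini-Hochberg adjustment over 12368 genes or 42216 transcripts. Intervals are the log2 fold change plus or minus 1.96 SE. CPM are edgeR counts per 1000000 after TMM. The fits were tested on simulated data with log2 fold changes of 1.5 and 0.5 in either direction. The gene fit recovered 100% and 95% of them, and 5.34% of its calls were false. The transcript fit recovered only 35% and 13.1%, and 7.69% of its calls were false. In each simulation 200 features were changed, none with few counts, so recovery of features with few counts was not tested. The simulated share of changed genes was also far under the 36.4% called in these data, and the false share may differ. DESeq2 1.42.0, limma 3.58.1 on log2(TPM + 1), log2(TPM + 0.1) and log2(FPKM + 1), other filters and scalings, and fits without 1 sample were alternatives. Depth gave 16133786 to 16702316 counts per sample.

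The named genes were all 7 members, their transcripts with a mean of at least 10 counts in a group, RB1, CDK2, CDK4, CDK6 and SKP2. To these were added up to 3 called genes of largest change per list, called or nearest neighbours within 250 kb, and the 4 most alike genes of 2 members. GENCODE symbols matched 16281 of 16798 genes. Some named items are not reported here. The members and lists were chosen with earlier results of these data known.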

Additional observations from a re-analysis of the deposited data

How the results depend on the processing

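The calls of CDKN1A, CDKN1B and CDKN2C held under all 15 alternatives, with log2 fold changes of 1.78 to 1.83, -0.36 to -0.21 and 0.28 to 0.41. CDKN2A kept its call in 14 of 15. CDKN2B, which was not called, changed sign in fits without 4HC replicate 2 (0.01) and without control replicate 1 (0.07), and ranged from -0.30 to 0.07 when 1 sample was left out. Other values without a call also crossed 0 in such fits. CDK6 ranged from -0.71 to 0.03, XM_011517676 from -0.01 to 0.27, NM_001363763 from -0.58 to 0.16 with 0.07 without control replicate 2, NM_001800 from -0.24 to 0.05 and FAF1 from -0.05 to 0.01. FAF1 was also 0.01 with library size only, 0.03 with log2(FPKM + 1) and 0.00 with either TPM pseudocount. The cause of these reversals was not tested.

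Transcript calls were the most dependent on the setting. Of the 4 member transcripts called higher, 2 were left with no filter and 1 to 2 when 1 sample was left out. Only NM_000389 was called in each of those fits. The log2 fold changes of the others stayed at 0.43 to 0.48 for NM_001262, 1.73 to 2.00 for NM_001220778 and 2.00 to 2.30 for NM_001374512 over their alternatives. Over all transcripts 298 were called higher and 248 lower, against 1465 and 1496 with DESeq2, 502 and 430 with at least 10 counts in every sample, and 46 to 83 and 12 to 49 when 1 sample was left out. Genes called lower numbered 1343 instead of 2118 with limma on log2(FPKM + 1).

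The replicate block gave 0 transcript calls of any kind, and the edgeR adjusted p of NM_000389 was then 0.0859 at a log2 fold change of 1.81. It changed no call of a member gene (3 higher, 1 lower). Deviations from the group means of samples with the same number correlated at 0.009, 0.069 and 0.030, so the numbers 1 to 3 were not taken to pair the samples.

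With counts in place of TPM, which are not scaled to length, the shares of the summed members in control and 4HC were 65.7% and 86.2% for CDKN1A, 8.46% and 2.62% for CDKN1B, 14.3% and 6.17% for CDKN2A, 1.14% and 0.398% for CDKN2B, and 2.78% and 0.900% for CDKN2D. Depth limited CDKN2B, at 45 to 78 counts per sample, and CDKN1C, at 2 to 9. Samples were not tested as outliers within their groups of 3.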

Other observations

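SMARCA4, an ATPase of the SWI/SNF chromatin remodelling complex, was at 7.56 ± 0.836 TPM in control and 6.69 TPM in 4HC. SMARCA4 did not pass the test (log2 fold change -0.17, edgeR adjusted p = 0.0584). Its paralog SMARCA2 was at 0.030 TPM in control and 0.0433 TPM in 4HC (n = 3). Epithelial markers were also near 0, with KRT19 at 0.143 TPM in both groups, EPCAM at 0.0267 TPM in control and listed at 0 in all 4HC libraries, and CDH1 at 0.0533 and 0.0433 TPM. The summed fibroblast list, carried by COL3A1 and LUM, was at 135.8 to 145.1 TPM in control and 136.9 to 138.1 TPM in 4HC. Its other members were lower in control, with DCN at 11.5, COL1A2 at 0.94, COL1A1 at 0.257 and PDGFRA at 0.09 TPM. The sum therefore does not stand for the whole list.

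Among D cyclins, the partners of CDK4, CCND3 made up nearly all of the mRNA. It was at 739.9 TPM in control and 599.5 TPM in 4HC, and was downregulated with a log2 fold change of -0.29 (edgeR adjusted p = 2.68e-10). CCND1 was at 1.45 and 1.24 TPM and CCND2 at 0.0133 and 0.030 TPM. These genes were chosen after their values were seen.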
